A study of Mus musculus with 8 samples.

Results

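H3K27ac HiChIP loops between 2 distal peak bins are described here for HPC-7, a line of murine blood progenitors, with cells that carried the p30 or the p42 isoform of the transcription factor CEBPA. A loop was counted where its 5 kb bins lay less than 500 kb apart, both overlapped an H3K27ac peak, and neither held the start of a canonical protein-coding or lncRNA transcript. UT cells were untreated, and LPS cells received bacterial lipopolysaccharide at 100 ng/mL for 2 h. Wherever 4 values follow each other, they belong to the p30 cells first and the p42 cells second, with UT before LPS within each isoform. In this order 35975 of 80489, 43496 of 94609, 75134 of 158233 and 37237 of 78591 loops were distal to distal. The 4 lists together held 102724 different distal to distal loops between 47002 bins. Each group had 2 replicate libraries, which the authors pooled into 1 list, so no value here has a replicate error and no difference between conditions could be tested. The study's methods describe HPC-7 cells stably transduced with a retrovirus that carries p30 or p42 fused to the ERT2 receptor domain and GFP, and state that cells with such fusions received 4-hydroxytamoxifen before experiments to bring the protein into the nucleus, a treatment that the labels of these libraries do not list. There was no group without a CEBPA transgene.

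HiChIP combines proximity ligation with immunoprecipitation of a chromatin mark, so a loop is a pair of bins ligated to each other more often than expected from their distance and their coverage. H3K27 acetylation marks active promoters and active enhancers, and a peak away from a start site is usually read as an enhancer. Enhancers that regulate a gene often contact each other as well as the promoter, and dense sets of such contacts are known around genes that define a cell type. p42 is the full-length form of CEBPA, a factor that drives granulocyte differentiation, and p30 is the shorter form that lacks the N-terminal transactivation region and is produced in acute myeloid leukaemia with CEBPA mutations.

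Sequence from both ends of 2 recurrent loops and from the bin with the most loops over the lists shows what these distal bins hold. The first loop lies downstream of Fgd2 and upstream of Pim1 and the second in a lncRNA gene beside Zfp36l2, and each was the loop with the most contacts in a connected group described further on. The windows are 150 bases of the plus strand of GRCm39, outside annotated exons, and the capitals mark motif matches on either strand. The motifs were TGANTCA for AP-1, TTGCNNAA for C/EBP, TGATGCAA for the composite of ATF4 and C/EBP, AGATAAG for GATA factors, TGTGGTT for RUNX factors and GAGGAAGT for PU.1. No motif contains another.
Pim1 loop, left bin, chr17:29601687-29601836: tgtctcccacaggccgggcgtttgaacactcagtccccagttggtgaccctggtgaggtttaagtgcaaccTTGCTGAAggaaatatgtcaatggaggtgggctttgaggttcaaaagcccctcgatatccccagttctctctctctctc
Pim1 loop, right bin, chr17:29613576-29613725: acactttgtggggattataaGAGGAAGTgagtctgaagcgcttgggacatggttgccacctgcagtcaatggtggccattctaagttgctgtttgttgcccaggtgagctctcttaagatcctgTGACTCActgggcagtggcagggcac
Zfp36l2 loop, left bin, chr17:84451014-84451163: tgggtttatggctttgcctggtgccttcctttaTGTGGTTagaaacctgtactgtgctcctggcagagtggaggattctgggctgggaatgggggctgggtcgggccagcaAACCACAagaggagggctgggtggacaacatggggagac
Zfp36l2 loop, right bin, chr17:84460453-84460602: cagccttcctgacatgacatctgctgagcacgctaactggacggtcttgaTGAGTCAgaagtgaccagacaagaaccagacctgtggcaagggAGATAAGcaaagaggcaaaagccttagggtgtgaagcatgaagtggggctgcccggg
Bin with the most loops, chr8:127579042-127579191: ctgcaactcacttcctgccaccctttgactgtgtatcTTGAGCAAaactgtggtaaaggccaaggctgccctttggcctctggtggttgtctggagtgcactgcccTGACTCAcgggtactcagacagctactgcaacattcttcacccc
Each window was chosen as the stretch of its 5 kb bin with the most different motifs, so the matches in it are an illustration and not a result.

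Across whole bins these short motifs were common everywhere. RUNX matches, the site of the RUNX1 family of progenitor factors, were present in 76.1% of the 46994 distal to distal bins without undetermined bases (95% Wilson interval 75.7 to 76.5) and in 70.1% of every 20th bin of the genome (69.5 to 70.6). PU.1 matches, the site of a myeloid ETS factor, were present in 29.7% against 26.5%. AP-1 matches did not differ, with 78.1% in both. C/EBP matches were in fewer distal to distal bins, 86.1%, than genome bins, 90.8%, and the composite motif was in 11.7% against 14.9%. The 4184 distal peak bins without such a loop gave similar shares. RUNX was in 75.9% of them (74.5 to 77.1), PU.1 in 30.1%, AP-1 in 77.5%, C/EBP in 86.3% and the composite in 12.8%. The differences from genome bins were thus not particular to bins with a distal to distal loop. Median GC content was 44.8% in distal to distal bins, 41.2% in the genome bins and 48.0% in start-site peak bins, and its part in these shares was not tested. At equal list size, loops that both p42 lists shared without any p30 list had 5475 bins, of which 4852 were counted here. A C/EBP match was present in 87.9% of the bins counted (87.0 to 88.8). For loops shared by the p30 lists alone, 4008 of 4631 bins were counted and 84.3% had a match (83.1 to 85.4). The GC content of the bins counted was 44.5% for p42 and 46.4% for p30. The share was 84.3% for loops in all 4 lists as deposited. At equal size it was 84.9% for the bins counted of loops in both UT lists only and 86.1% for both LPS lists only. These intervals cover counting over bins, and with the replicates pooled the isoform difference could not be tested.

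Peak bins of the lists covered the start sites of progenitor genes. Those of 12 of 12 haematopoietic progenitor markers, Kit, Cd34, Runx1 and Erg among them, were marked, and 0 of 4 T cell, 0 of 4 neuronal, 0 of 4 fibroblast and 0 of 4 hepatocyte markers were. Of 4 B cell markers 1, Cd79b, was marked. The distal label itself had limits. Of the bins 31.4 to 32.1% by list lay directly next to a start-site bin, and 23.8 to 24.6% held the start of another annotated transcript, so that 57.6 to 59.1% of the loops had no annotated start of any kind in either bin. Loops with neither bin next to a start-site bin made up 43.9 to 44.4%.

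Distal to distal loops were the most numerous class in each of the 4 lists, at 44.7% (95% Wilson interval 44.4 to 45.0, counting error only), 46.0% (45.7 to 46.3), 47.5% (47.2 to 47.7) and 47.4% (47.0 to 47.7). This order rested on the definition of a start site. When every annotated transcript start counted, 25.9 to 28.1% were distal to distal and 39.9 to 41.2% promoter to distal, and when a bin next to a start-site bin counted too, the shares were 19.8 to 21.1% and 38.98 to 40.6%. Their number did not follow the number of contacts behind each list. FitHiChIP modelled 17976716, 14503330, 18999991 and 15831583 contacts, and the distal to distal loops drew 6.08%, 8.79%, 12.5% and 6.81% of them. In UT cells p42 had 2.09 times the loops of p30 with 1.06 times the modelled contacts, and with LPS it had 0.856 times the loops with 1.09 times the contacts. LPS went with 1.21 times the loops in p30 and 0.496 times in p42. The whole lists gave ratios of 1.97, 0.831, 1.18 and 0.497, so the distal to distal number moved with the length of the whole list. When each list was cut to its 78591 loops of smallest q-value, the distal to distal numbers were 35065, 35650, 35620 and 37237, and both ratios below 1 became 1.04 and 1.05. Loop numbers around genes and combinations of lists were therefore compared at equal size, and values said to be as deposited, contact counts and connected groups come from the full lists.

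**Figure D1:**
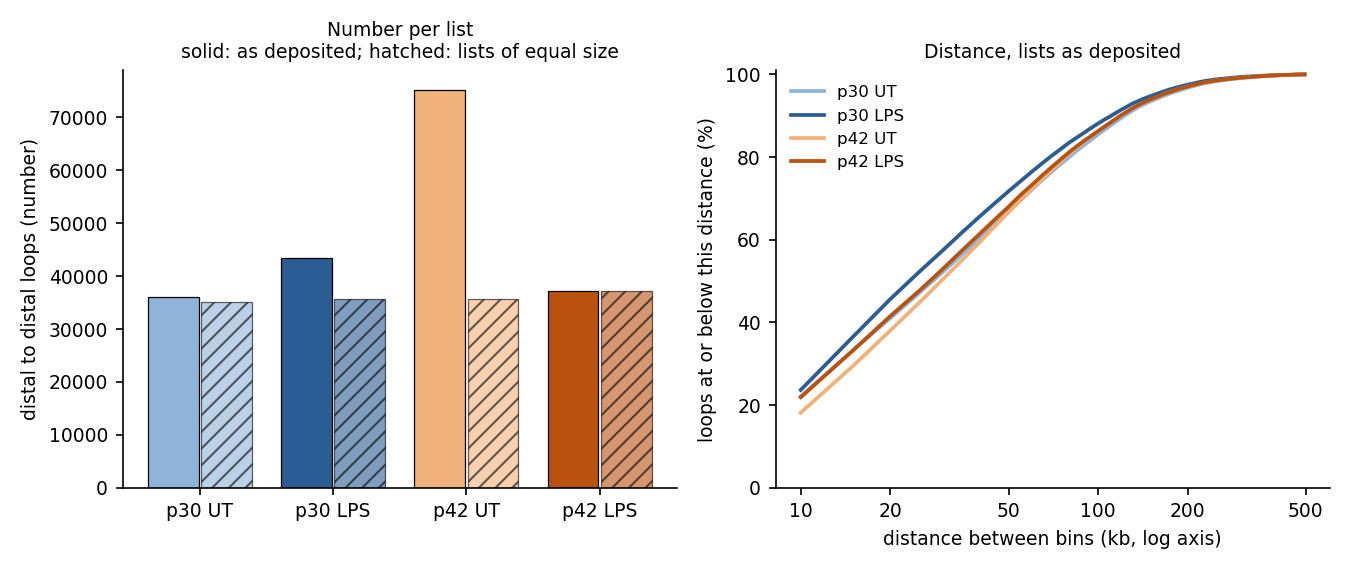
Left, number of distal to distal loops in each list, as deposited (solid) and after each list was cut to equal size (hatched). The p42 UT bar stands at 75134 as deposited and at 35620 at equal size, beside 35065 to 37237 in the other lists. Right, share of loops (%) at or below each distance between bins (kb, log axis), and the 4 lines run close together.

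Most of these contacts were short. The median distance between bins was 25 kb in p30 LPS and 30 kb in each other list, with a lower quartile of 15 kb in each list and an upper quartile of 60 to 70 kb. The shortest distance in the lists, 10 kb, accounted for 18.2% of the loops in p42 UT and for 21.9 to 23.7% in the other 3 lists. Loops over 100 kb made up 11.9% in p30 LPS and 13.7 to 14.5% elsewhere. At the distance limit few loops were near the edge, with 45, 42, 91 and 32 loops at 450 to 495 kb and 14, 13, 31 and 11 at 500 to 545 kb that the rule left out. Within a loop the median contact count was 21 or 22, and the observed count was in the median 3.71, 3.72, 3.81 and 3.79 times the expected count.

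Compared with the other classes, distal to distal loops were shorter, less enriched over expectation and less often recurrent. Their median distance was below that of promoter to distal loops in 4 of 4 lists, with a mean difference of -13.75 kb (SD 2.5 over lists), and against promoter to promoter loops the difference was -21.25 kb (SD 2.5). For the share of loops found in all 4 lists the differences were -6.85 percentage points (SD 1.90) and -13.8 points (SD 3.76), and for the median of observed over expected contacts -0.67 (SD 0.067) and -1.15 (SD 0.096). For each of these 6 differences the two-sided exact sign-flip test over the 4 lists gave p = 0.13. This is the smallest value that 4 lists allow, so the test could not decide. The 4 lists are different conditions with loops in common, so each SD is a spread over lists and not a replicate error. The recurrent loops of a class are the same set in each list, also at matched distance, so only the class size differs between lists. The recurrence differences are therefore not 4 separate observations, and their SD and test carry no weight. Part of the gap went with distance. At 10 kb the ratio of observed to expected contacts was 2.12 to 2.25 for distal to distal and 2.09 to 2.23 for promoter to distal loops. There distal to distal was the slightly higher class in each list. At 100 to 495 kb the ratio was 6.31 to 6.76 against 6.38 to 6.71, and distal to distal was higher except in p42 UT. In between, distal to distal loops were lower in each list, with 3.27 to 3.50 against 3.45 to 3.67 at 15 to 45 kb and 5.07 to 5.43 against 5.24 to 5.54 at 50 to 95 kb. Recurrence also differed at matched distance up to 95 kb. Between 15 and 45 kb, 15.3 to 34.7% of distal to distal loops were in all 4 lists against 21.9 to 45.6% of promoter to distal loops, and distal to distal was lower in each list. At 100 to 495 kb the order was the same in 3 lists, and in p30 LPS it turned, with 29.98% against 28.9%.

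**Figure D2:**
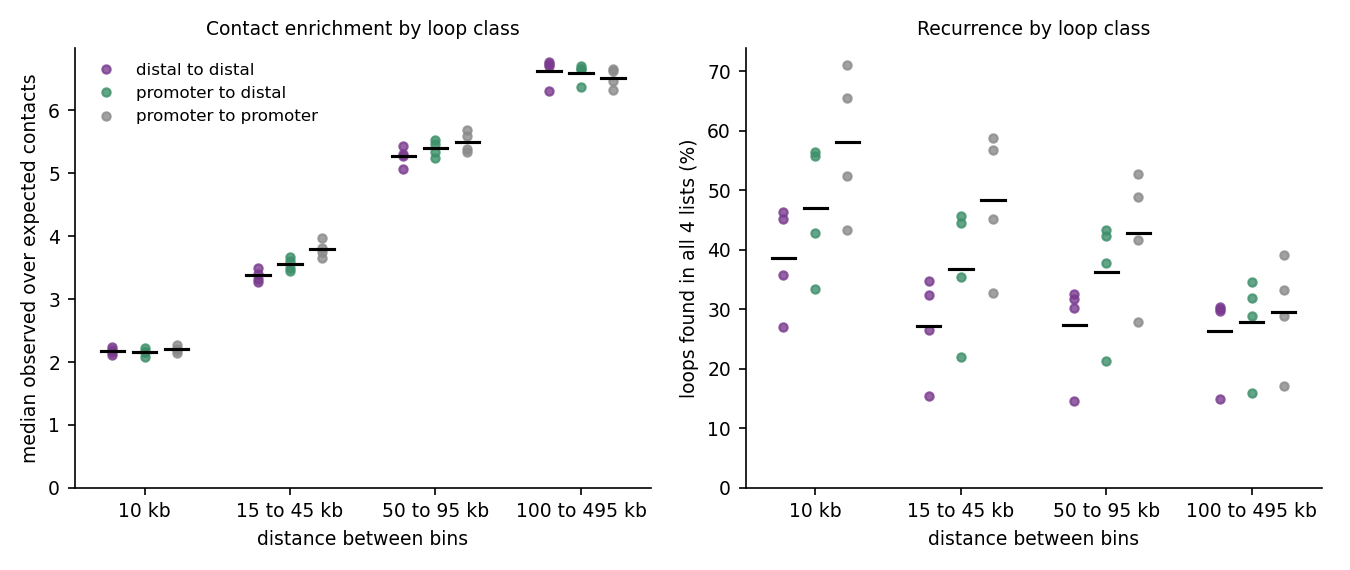
Median ratio of observed to expected contacts (left) and percentage of loops found in all 4 lists (right) for the 3 loop classes in 4 distance ranges. Each point is 1 list and each bar the mean of the 4 lists. Among listed loops the ratio rises with distance from about 2.1 at 10 kb to above 6 at 100 to 495 kb in each class. Only pairs with a q-value under 0.01 are listed, so a pair with a low expected count enters only at a high ratio. The part of this limit in the rise was not tested. The distal to distal mean sits below the means of the other classes for recurrence from 10 to 95 kb.

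Most distal to distal loops stayed within the neighbourhood of a single gene. No protein-coding start site lay between their bins in 63.7% (63.2 to 64.2), 66.4%, 63.3% and 64.3%. Both bins lay inside the same protein-coding gene in 49.3 to 52.9% of loops. Of the bins, 43.2 to 44.3% overlapped a protein-coding exon, 36.5 to 37.9% lay within introns, 8.79 to 9.15% in a lncRNA gene alone and 9.71 to 10.2% in no gene. The median distance from a bin to the nearest protein-coding start was 19.7 to 20.2 kb. By chromosome, 17 had the most distal to distal loops per distal peak bin in each list, 1.49, 1.70, 2.40 and 1.52. The X chromosome had 0.549, 0.633, 0.843 and 0.655, and its bins also had low relative coverage (0.59 to 0.70, against 1.17 to 1.34 on chromosome 17).

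Many of the loops formed triangles with a start site. Both bins were joined to at least 1 common start-site bin in 30.5% (30.1 to 31.0), 37.1% (36.7 to 37.6), 49.5% (49.1 to 49.8) and 30.8% (30.3 to 31.2) of the loops. At equal list size these shares were 30.2, 34.3, 38.5 and 30.8%, so p42 UT stayed above the other lists and the gap narrowed. Neither bin had a loop to any start site in 24.1, 20.9, 12.5 and 23.2% of loops as deposited. The loops also chained into groups of bins. A bin had 2 distal to distal loops in the median and at most 26, 36, 45 and 32, and 74.2, 78.5, 89.5 and 75.6% of the loops belonged to a connected group of 10 loops or more. The largest connected groups held 272, 384, 576 and 283 loops.

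The bin with the most loops over the 4 lists lay at chr8:127575001-127580000 inside a lncRNA gene, 95.2 kb from the start of Tomm20, and had 24, 32, 35 and 32 loops in the lists of equal size. Tomm20 encodes a receptor of the mitochondrial protein import machinery, and Irf2bp2, a transcriptional corepressor, lies on the other side of the same region. A bin near Ifnar2, a subunit of the type I interferon receptor, had 20, 30, 29 and 29 loops, and a bin in the lncRNA gene beside Zfp36l2 had 26, 24, 31 and 25, more than the first bin in p30 UT. The intergenic bin at chr9:123730001-123735000 near Ccr1 had 20, 26, 25 and 27 loops, with a coverage of 43020, 41256, 68740 and 39708 reads against a median of 2200 to 2914 for distal to distal bins. The Ccr1 bin thus had many times the reads of a typical distal bin, and its part in the loop number was not tested.

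A core of 12959 distal to distal loops was present in all 4 lists, 12.6% of the union (12.4 to 12.8). In this core the median contact count was 33, 31, 44 and 31, against 14, 15, 16 and 14 for loops found in a single list, and the median distance was 25 kb against 30 to 40 kb. The core fell into 3145 connected groups. Of these, 303 had 10 loops or more and together held 55.0% of the core loops.

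The group of the core with the most loops spanned chr17:29255001-29740000 with 130 loops between 54 bins. It contains the start sites of Cdkn1a, the p21 inhibitor of cell cycle kinases, and Pim1, a survival kinase induced by cytokines. Contacts in its core loops were 280, 415, 283 and 300 per 1000000 modelled contacts, so the p30 LPS list stood apart from the other lists. Scaled counts of p30 LPS were also raised over all shared distal to distal loops. There the median log2 ratio was 0.21 for LPS over UT in p30 and -0.13 for p42 over p30 with LPS. The loop whose sequence is printed above, 10 kb long, had 118, 212, 123 and 144 contacts against 46.1, 67.9, 43.2 and 54.6 expected. The next group, at chr17:28130001-28530000, had 126 loops, most of them in or near Anks1, Tcp11, Def6 and Ppard, a nuclear receptor for fatty acids. Its contacts per 1000000 were 344, 390, 379 and 353, a narrow range.

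The group at chr17:84200001-84695000 next to Zfp36l2, an RNA-binding protein that destabilises AU-rich mRNAs, had 81 loops and 226, 228, 289 and 172 contacts per 1000000. The group over Myh9, the heavy chain of non-muscle myosin, and Txn2 at chr15:77645001-77855000 had 107 loops, joining 24.2% of the bin pairs 10 kb or more apart. Its contacts were 223, 292, 279 and 295 per 1000000. Zmynd8 and Ncoa3, both chromatin co-regulators, shared a group of 81 loops at chr2:165620001-165890000 with 167, 205, 185 and 151 contacts per 1000000.

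The lists overlapped in part. As a share of the deposited union, p30 and p42 had 30.4% in common in UT cells and 34.0% with LPS, and UT and LPS had 34.1% in common in p30 and 32.3% in p42. When each bin was allowed to shift by 1 bin, which can only add matches, the shares were 62.4, 67.8, 68.3 and 65.0%. In UT cells 72.0% of the p30 loops were found in p42 and 34.5% of the p42 loops in p30, and at equal list size both became 53.2% and 52.3%. All loops of the lists shared slightly more in each comparison, 32.9, 36.3, 36.7 and 33.8%.

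**Figure D3:**
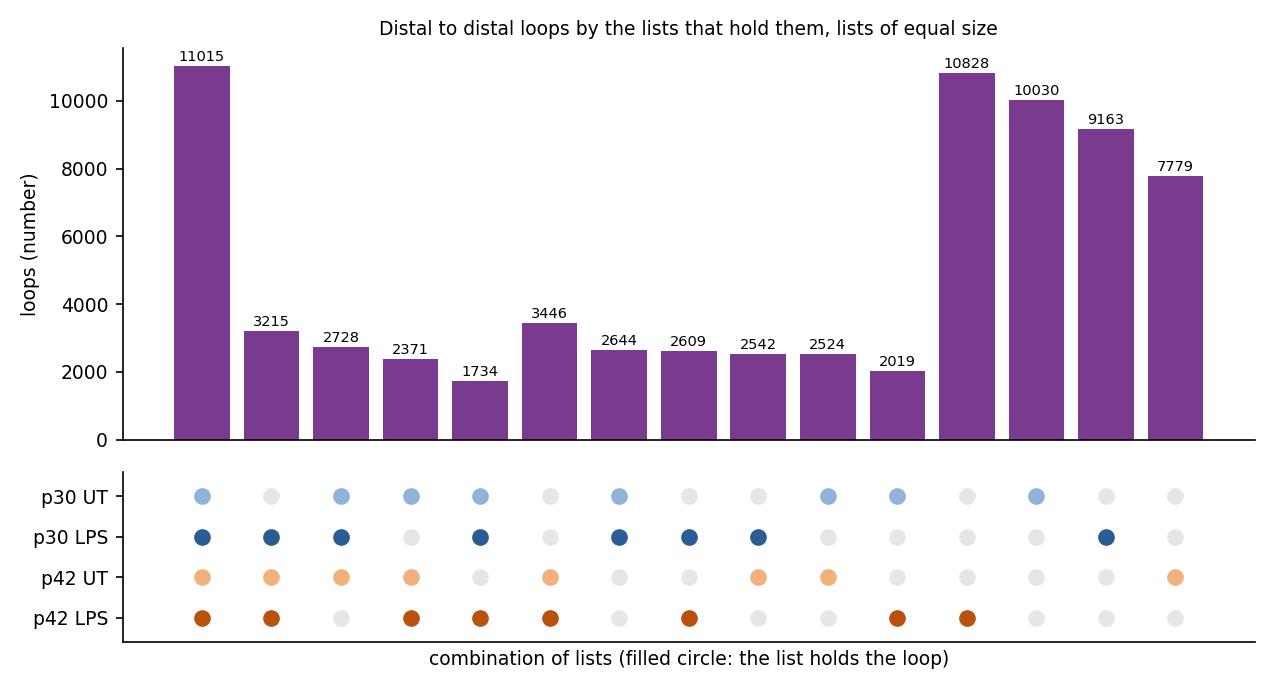
Number of distal to distal loops for each combination of lists that holds them, lists of equal size. Filled circles mark the lists of a combination. The bar of loops in all 4 lists (11015) is the tallest, the single-list bars reach 7779 to 10828, and the pairs of lists hold 2019 to 3446.

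Loops that followed the isoform were not much more numerous than other pairings. At equal list size the union was 74647 loops and 11015 (14.8%) were in all 4 lists. Both p42 lists alone shared 3446 loops and both p30 lists alone shared 2644. Both LPS lists alone shared 2609 and both UT lists alone 2524, while the crossed pairs, which share neither isoform nor treatment, held 2542 (p30 LPS with p42 UT) and 2019 (p30 UT with p42 LPS). Of the p42 loops 70.6% lay within 1 bin of a loop in a p30 list. Bins of the p42 loops had a median log2 relative coverage of 0.17 in UT and 0.12 with LPS, p42 over p30, and bins of the p30 loops had -0.15 and -0.059.

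Contact counts within shared loops were scaled to the modelled contacts of each list and compared with a 1.5-fold limit. In the deposited lists 18.3% of the 25893 distal to distal loops in both UT lists were over 1.5-fold higher in p42 and 2.50% over 1.5-fold lower, near the background of 19.3% and 2.88% over all shared loops. With LPS 4.21% were higher in p42 and 10.4% lower, with a background of 4.07% and 13.2%. In p30, LPS went with 15.5% higher and 1.71% lower, with a background of 17.1% and 2.05%. In p42 it went with 3.64% higher and 10.5% lower, with a background of 3.76% and 12.9%. The background includes the distal to distal loops. Among the other shared loops, 15.5% were lower in p42 with LPS and 14.97% lower with LPS in p42, so the distal to distal shares of 10.4% and 10.5% lay below those of the other loops. The SD of the log2 ratio was 0.43, 0.39, 0.38 and 0.39 over shared loops, and counting error alone gives 0.39 in each comparison. Among the 12959 core loops, 345 (2.66%) were over 1.5-fold higher in p42 in both treatments, 74 (0.571%) were lower in both and 281 (2.17%) went in opposite directions. The background over all loops present in the 4 lists was 2.37%, 0.683% and 2.83%. With LPS 138 (1.06%) were higher in both isoforms, 82 (0.633%) were lower in both and 320 (2.47%) went in opposite directions, with a background of 1.02%, 0.738% and 3.13%. Opposite changes with LPS were thus more frequent than changes in the same direction. This also held over all loops present in the 4 lists, where the share of opposite changes was higher. The counts were not centred on a list-wide shift. Over shared distal to distal loops the median log2 ratio of LPS over UT was 0.21 in p30 and -0.099 in p42. The part of this shift in the opposite changes was not tested.

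Some single loops differed the same way in both comparisons. They were picked for the size of the difference, so their values are a description. A 15 kb loop near Serpinb2, which encodes an inhibitor of plasminogen activation made by activated macrophages, had 37, 38, 126 and 93 contacts. Both p42 counts exceeded both p30 counts, and the expected counts, set by coverage, were 17.8, 16.5, 42.9 and 35.7. A loop near Fgr, a myeloid Src-family kinase, had 29, 17, 66 and 48 contacts, and one near Cd93, a receptor of progenitors and myeloid cells, had 21, 14, 66 and 34. In the other direction, a loop between bins near Commd7 and Dnmt3b, a DNA methyltransferase, had 43, 23, 16 and 12 contacts, and a loop from Fgd2 to Pim1 had 23, 28, 12 and 15.

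LPS went with higher counts at a loop near Fth1, the ferritin heavy chain, with 18, 38, 29 and 48 contacts. At a loop from Myh9 to Txn2 the counts were 13, 27, 14 and 26. At each of them the UT count was the lower one in either isoform. A loop near Gpx3, a secreted glutathione peroxidase, had 56, 14, 69 and 11 contacts, and a loop between bins near Irf1, an interferon-responsive transcription factor, and Slc22a5 had 37, 13, 50 and 14. At both, the UT counts exceeded the LPS counts in either isoform.

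Each bin was then assigned to the protein-coding gene with the nearest start, and loops with a bin of a gene were counted as lying around it. This says nothing of which gene a loop acts on, and neighbouring genes can share a loop. In the lists of equal size 8932 genes had at least 1 distal to distal loop around them. As deposited, 850, 845, 972 and 823 genes held 50% of the counts. Haao, an enzyme of tryptophan breakdown, had 213, 155, 178 and 116 loops at equal size, and Zfp36l2, its neighbour, had 169, 120, 181 and 126. Tomm20 had 78, 156, 141 and 159, and Ncoa3 had 110, 128, 107 and 99. Ankrd44 had 102, 134, 102 and 143, Myh9 had 100, 124, 112 and 136, and Itpkb, an inositol phosphate kinase, had 91, 117, 95 and 117. In these 3 genes both LPS lists lay above both UT lists at equal size. As deposited, p42 UT lay above p42 LPS in each of them, with 176 against 143, 156 against 136 and 185 against 117.

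Cebpb, a CEBPA relative that is induced by LPS, had 63, 107, 117 and 134 loops around it. It was higher in p42 in both treatments and higher with LPS in both isoforms. The deposited lists gave 64, 127, 196 and 134, where the p42 LPS value lay below p42 UT. Relative coverage of its bins was 1.49, 1.66, 2.22 and 2.36 in the median, in the same order, and its part in the loop counts was not tested. Lpin2, a phosphatidate phosphatase, had 50, 58, 89 and 142 loops, and Emilin2, its neighbour, had 28, 54, 60 and 95. Gsdmc, a gasdermin, had 5, 9, 36 and 43, and Nt5e, the ectonucleotidase CD73, had 8, 5, 39 and 37. Coro6 had 29, 37, 58 and 70. In these genes both p42 lists lay above both p30 lists, for loops and for relative coverage of the bins (Nt5e 0.884, 0.751, 1.55 and 1.47). Within an isoform loops and coverage did not always move together. With LPS, coverage fell while loops rose around Emilin2 in p30 (1.26 to 1.20) and around Coro6 in p42 (1.63 to 1.57). The part of coverage in these loop counts was not tested.

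More loops in p30 than in p42 under both treatments were found around Ptprs, a receptor tyrosine phosphatase, with 66, 49, 16 and 14 loops. As deposited it had 68, 61, 61 and 14. Armc9 had 104, 88, 78 and 63, its neighbour B3gnt7 had 93, 78, 70 and 52, Clic4, a chloride channel protein, had 49, 48, 29 and 29, and Btbd9 had 67, 65, 40 and 47. In the deposited lists, whose p42 UT list is longer, Haao, Armc9, B3gnt7, Clic4 and Btbd9 had more loops in p42 UT than in p30 UT, with 328 against 216, 126 against 106, 114 against 96, 52 against 49 and 70 against 68.

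LPS went with more loops in both isoforms around Irf2bp2 (55 to 115 in p30 and 89 to 128 in p42), Smad3, the mediator of TGF-beta signalling (76 to 120 and 63 to 90), and Ptafr, the receptor for platelet-activating factor (32 to 60 and 48 to 74). In the deposited lists the p42 direction turned for each of these 3 genes, with 213 to 128 for Irf2bp2, 144 to 90 for Smad3 and 80 to 74 for Ptafr. LPS went with fewer loops around Trappc9 (65 to 44 in p30 and 63 to 37 in p42), Nol4l (67 to 38 and 41 to 24) and Mvb12b (55 to 23 and 32 to 16). These genes were selected as those with the largest same-sign differences, so the size of their differences is a description.

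**Figure D4:**
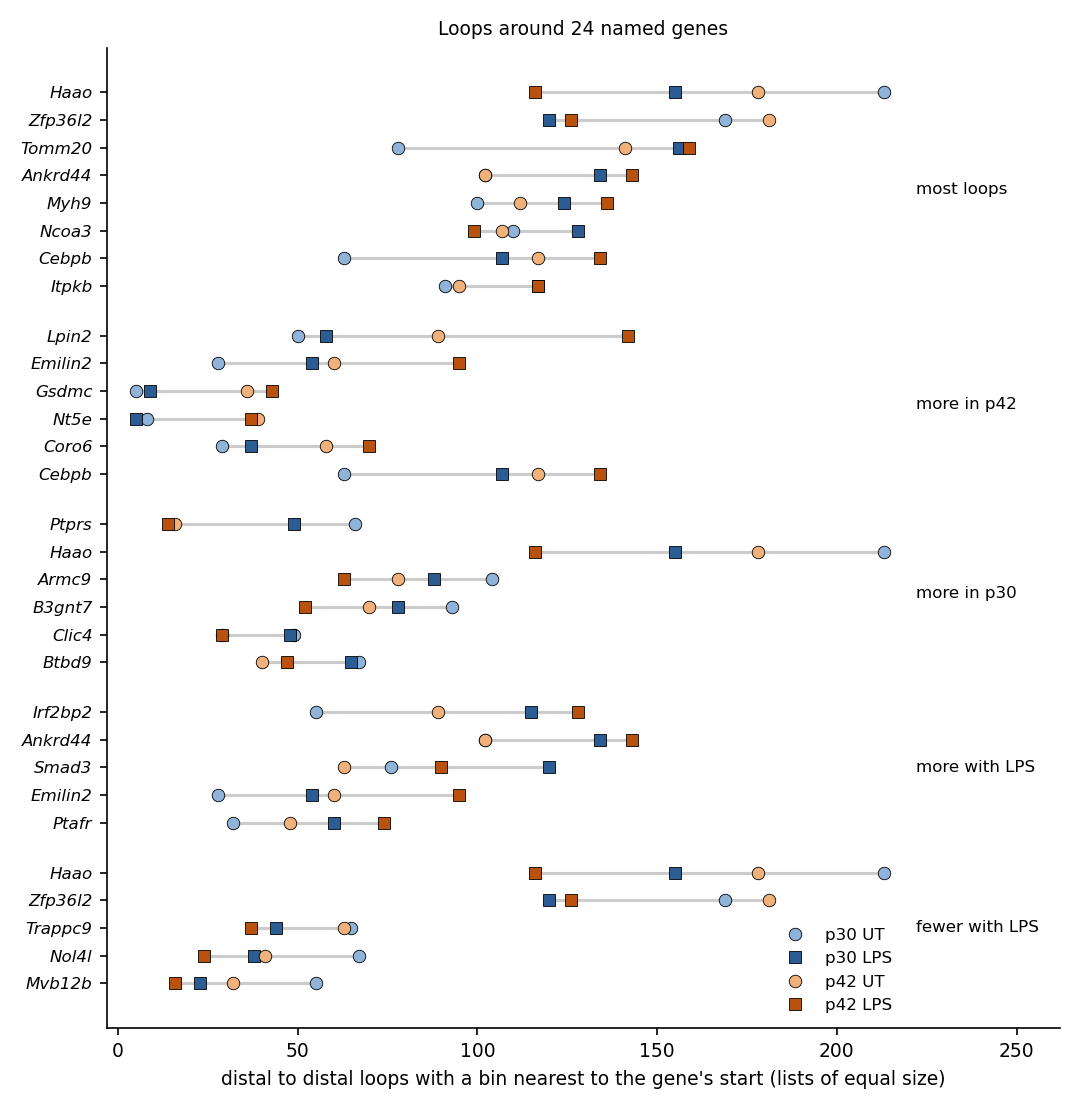
Number of distal to distal loops around each named gene in the lists of equal size, with circles for UT, squares for LPS, blue for p30 and orange for p42. Grey lines join the lowest and highest list of a gene. Haao ranges from 116 in p42 LPS to 213 in p30 UT, and Cebpb from 63 in p30 UT to 134 in p42 LPS.

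The inflammatory list held 104 genes of cytokines, chemokines, their receptors and the NF-kappaB and interferon response, and 87 had a distal to distal loop around them at equal list size. This list and those below were chosen with earlier results of these data known, so their counts are a description. Neighbouring members can share loops and are not separate observations. Il1a and Il1b, for example, each had 0, 1, 0 and 2 loops. With LPS, 47 of 74 compared genes (63.5%) had more loops than in UT cells in p30 and 22 had fewer. Over all genes with a loop the background was 40.4% with more and 42.3% with fewer. In p42, 56 of 80 (70.0%) had more and 19 fewer, with a background of 45.2% and 35.4%. The median difference was 1 loop per gene in both isoforms, and 0 over all genes. The p42 direction turned in the deposited lists, of which p42 UT is the longest, with 15 genes that had more and 62 that had fewer. Loops around the list summed to 864, 1080, 1069 and 1224.

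Between isoforms, 40 of 70 inflammatory genes (57.1%) had more loops in p42 UT cells than in p30 UT cells and 24 had fewer, with a background of 39.5% and 43.7%. With LPS 52 of 86 (60.5%) had more and 26 fewer, with a background of 43.6% and 38.8%. The isoform difference with LPS depended on bins beside start sites. When bins next to a start-site bin were no longer counted as distal, 22 genes of 53 had more loops in p42 and 23 fewer. In UT cells the same setting left 23 with more and 19 with fewer, and the LPS differences kept their direction with 29 against 17 genes in p30 and 25 against 17 in p42. Ccr1 had 51, 76, 68 and 84 loops, and Ifnar1, a type I interferon receptor subunit, had 51, 81, 50 and 71. Nfkbia, the inhibitor of NF-kappaB, had 23, 35, 29 and 44. In these 3 genes both LPS values exceeded the UT value of the same isoform at equal size, and the p42 order turned in the deposited lists, with 114 in UT and 84 with LPS for Ccr1, 112 and 71 for Ifnar1 and 52 and 44 for Nfkbia. Dusp1, a phosphatase that limits MAP kinase signalling, had 61, 68, 74 and 63 loops, with the p42 lists in the opposite order.

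Of 34 granulocyte genes 21 had a distal to distal loop, and 16 of 20 compared (80.0%) had more in p42 than p30 UT cells, against the background of 39.5% given above. With LPS 12 of 20 had more and 6 fewer. Cxcr4, the chemokine receptor that retains neutrophils in the marrow, had 43, 19, 55 and 52 loops, with p30 LPS apart from the others. Ncf1 and Ncf4, cytosolic subunits of the NADPH oxidase, had 32, 33, 41 and 30 and 33, 39, 38 and 34, and Itgb2, the shared beta chain of the leukocyte integrins, had 16, 15, 20 and 20. Cebpe, a factor of late granulocyte maturation, had 15, 12, 19 and 21. Counts of LPS over UT were mixed in this list, with 9 more and 10 fewer of 20 in p30 and 6 more and 9 fewer in p42. The deposited lists gave 13 more and 5 fewer in p30, and 0 more and 21 fewer in p42. The p42 UT list is the longest of these, and shares over all genes are not given for them.

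AP-1 subunit and related genes had a distal to distal loop in 16 of 20 cases. In UT cells 6 of 15 (40.0%) had more loops in p42 and 8 (53.3%) fewer, beside 39.5% and 43.7% over all genes, and with LPS 10 of 16 (62.5%) had more and 3 (18.8%) fewer, beside 43.6% and 38.8%. With LPS 7 (46.7%) had more and 6 (40.0%) fewer than in UT cells in p30, beside 40.4% and 42.3% over all genes. In p42, 10 (62.5%) had more and 2 (12.5%) fewer, beside 45.2% and 35.4%. In the deposited lists these directions turned for p42 over p30 in UT cells (13 more, 1 fewer) and for LPS over UT in p42 (1 more, 14 fewer), and the isoform difference with LPS turned at equal size without bins next to start sites (3 more, 4 fewer). Bach1, a haem-regulated repressor, had 43, 54, 58 and 79 loops, Atf3 had 44, 46, 39 and 53, and Fos had 15, 11, 21 and 22. The Fos values were higher in p42 than in p30 in both treatments. Of the ATF4 and stress response genes 20 of 31 had loops. In UT cells 7 of 20 (35.0%) were higher and 11 (55.0%) lower in p42. With LPS 13 of 19 (68.4%) were higher and 4 (21.1%) lower, beside the same shares over all genes. Loops around this list in UT cells nonetheless summed to 127 in p42 and 104 in p30 at equal size. In the deposited lists these sums were 255 and 109. Ppp1r15b, which directs dephosphorylation of eIF2alpha, had 19, 31, 46 and 49, and Ddit4, an inhibitor of mTORC1, had 31, 27, 39 and 30.

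Progenitor transcription factor genes had loops in 25 of 30 cases, and 14 of 25 (56.0%) had more and 7 (28.0%) fewer in p42 than p30 UT cells, and with LPS 15 of 25 (60.0%) had more and 7 fewer, beside 39.5% and 43.7% and then 43.6% and 38.8% over all genes. Erg, an ETS factor of stem cells, had 73, 96, 102 and 105 loops, and Lmo2, an adaptor of the same factor complex, had 60, 62, 78 and 67. Runx1 had 25, 37, 15 and 68, and in the deposited lists 25, 51, 61 and 68, so its place in p42 UT depended on the list length. Of the erythroid and megakaryocyte genes, 6 of 17 (35.3%) were higher and 6 (35.3%) lower in p42 in UT cells. With LPS 8 of 16 (50.0%) were higher and 7 (43.8%) lower, beside the same shares over all genes. Bcl2l1, which encodes the survival protein BCL-XL, had 59, 55, 66 and 54 loops, and Itgb3, an integrin of platelets, had 15, 24, 20 and 16. Of 73 ribosomal protein genes, taken as housekeeping genes, 45 had loops, and 11 of 39 (28.2%) had more in p42 in UT cells and 20 (51.3%) fewer. With LPS 17 of 43 (39.5%) had more and 15 (34.9%) fewer. The shares over all genes were again 39.5% and 43.7% in UT cells and 43.6% and 38.8% with LPS. Loops around the ribosomal list in UT cells summed to 147 in p42 and 190 in p30 at equal size. In the deposited lists this order turned, with 286 and 195. Rpl11 had 22, 15, 20 and 15 loops and Rps14 had 18, 14, 17 and 18.

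**Figure D5:**
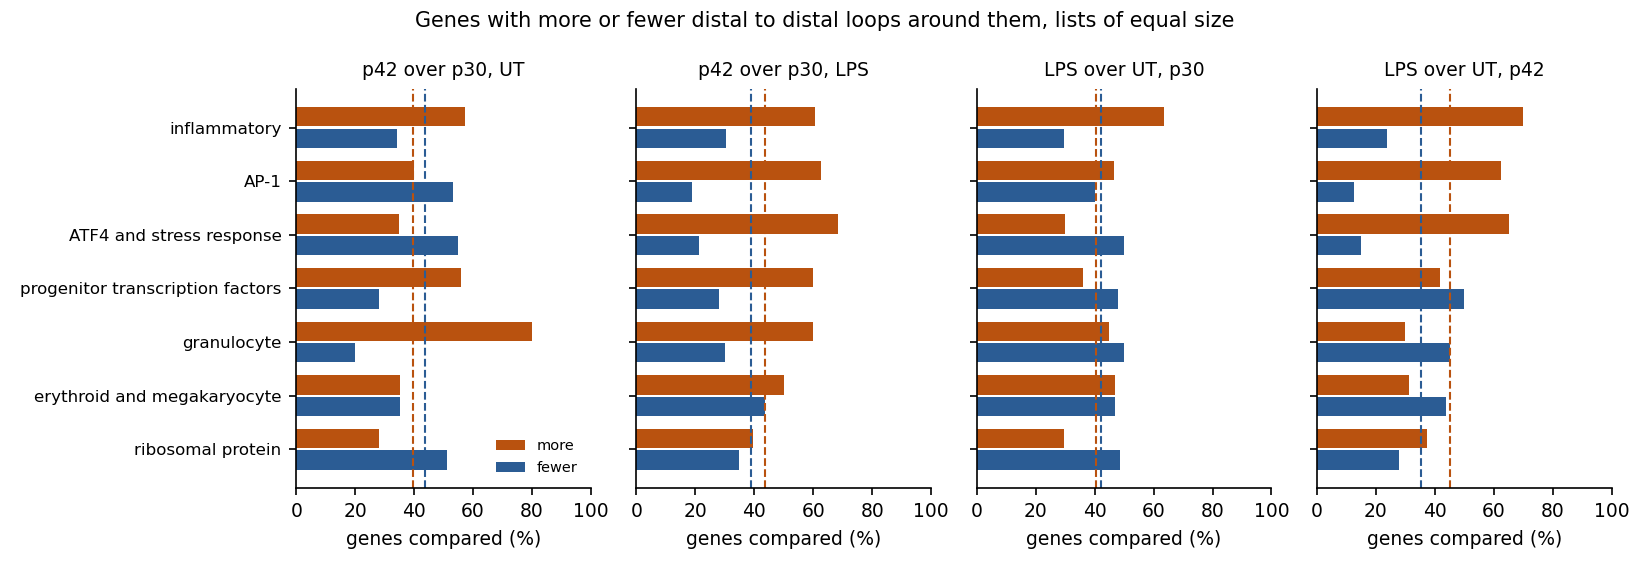
Percentage of the genes compared in each list that had more (orange) or fewer (blue) distal to distal loops around them in the first condition of each comparison, lists of equal size. Dashed lines give the same shares over all genes with a loop. The inflammatory bars for more loops lie right of the dashed orange line in the 4 panels, at 57.1, 60.5, 63.5 and 70.0%.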

How the data were processed

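H3K27ac HiChIP libraries (4 groups, 2 replicates each, 8 libraries) were made with an MNase-based kit. The authors mapped reads to mm39 with BWA 0.7.17, parsed and deduplicated ligation pairs with pairtools, and called loops with FitHiChIP at a q-value under 0.01. No header names the columns, which follow the order FitHiChIP writes. Per pair of 5 kb bins the deposited lists give the contact count, the coverage and coverage bias of each bin, a peak flag, the distance, the expected count, the contact probability as a fraction, a p-value and a q-value. The pooling of both replicates is not described in the sources used here, and columns of other samples numbered 0.

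Start sites were those of the GENCODE vM39 canonical transcripts of GRCm39 (21757 protein-coding and 32884 lncRNA), the same assembly as mm39, and 0 loops ran beyond a chromosome end. Peak flags were the same in every list for all 75822 bins. Modelled contacts of a list are the expected count divided by the probability. Lists of equal size hold the 78591 loops of smallest q-value. Genes named are the 8 with the most loops at equal size, 6 in each isoform direction and 5 in each LPS direction with the same sign under both other conditions, and 2 to 4 members with the most loops per gene list. Nfkbia, Cebpe, Tnip1, Irf1, Apoa1, Pdgfra and the single shared loops were chosen after their values were seen. Of the 6 connected groups the same rule selects, 1 is not reported here. The members and gene lists were chosen with earlier results of these data known. Intervals are 95% Wilson intervals over loops or bins and cover counting error only, since the replicates of each group were pooled. Class differences were tested with a two-sided exact sign-flip test over lists, and 6 motifs were searched on both strands. Python 3.11.15, pandas 2.3.3, numpy 2.4.6 and scipy 1.17.1 were used. Loop measures and motif search were tested on simulated data with planted answers.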

Additional observations from a re-analysis of the deposited data

Results flagged for a closer look

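The change with LPS went in opposite directions in p30 and p42 for the 6 measures of the deposited lists that were set side by side. Each group has 1 list, so the difference between isoforms was not tested. The log2 ratio of LPS over UT was 0.27 in p30 and -1.01 in p42 for the number of distal to distal loops, and 0.11 and -0.48 for the number of bins in them. For the share of loops in connected groups of 10 or more it was 0.081 and -0.24, for the share of loops whose bins had a common start-site partner 0.28 and -0.69, for the highest number of loops at 1 bin 0.47 and -0.49, and for the distal to distal share of the list 0.041 and -0.0031. At equal list size the number of loops changed by 0.024 and 0.064, in the same direction, and so did the distal to distal share. The number of bins changed by -0.047 and 0.16, the share in groups of 10 or more by 0.023 and -0.039, the shared-partner share by 0.18 and -0.32, and the highest number of loops by 0.30 and -0.13.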

How the results depend on the processing

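No paired analysis was possible because the replicates of each group were merged into 1 list before deposition, and for the same reason no replicate was left out. The 6 class differences kept their direction under 7 alternatives, with differences in median distance of -13.75 to -7.5 kb against promoter to distal and -21.25 to -11.25 kb against promoter to promoter loops. Their differences in observed over expected contacts shrank from -0.67 and -1.15 to -0.31 and -0.53 for loops of 20 kb or more. Among the ratios of loop numbers and the shares in common, 37 values kept to within 1.5 times or to the counting interval of the value reported, 33 moved and 2 reversed. Among the gene lists 25 kept, 5 moved and 6 reversed, and among the values of single lists 39 kept and 53 moved, the distal to distal share of each list among them. Merging touching bin pairs took the ratio of p42 to p30 in UT cells from 2.09 to 1.62.

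Sharing is given as the share of the union in all 4 lists, then for p30 with p42 in UT and with LPS, then for UT with LPS in p30 and in p42. The values were 12.6, 30.4, 34.0, 34.1 and 32.3% as reported. They were 11.5, 29.0, 32.5, 32.5 and 31.2% when every annotated transcript start counted, 10.5, 27.7, 30.4, 30.7 and 29.5% when a bin next to a start-site bin counted too, 10.7, 27.4, 31.1, 31.3 and 29.4% for loops of 20 kb or more, 12.9, 30.9, 34.5, 34.5 and 32.9% for loops of 10 contacts or more, and 41.3, 62.4, 67.8, 68.3 and 65.0% when each bin was allowed to shift by 1 bin. At a q-value under 0.001 the share in all 4 lists was 12.05%, that of p30 with p42 in UT cells 28.6% and that of UT with LPS in p42 30.8%. At equal list size these 3 shares were 14.8, 35.8 and 38.0%, and UT with LPS in p30 shared 34.5%. The ratio of loop numbers at equal size was 1.02 for p42 over p30 in UT cells, 1.04 with LPS and 1.05 for LPS over UT in p42, so that the last pair, below 1 as deposited, reversed.

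For gene lists, alternatives chosen after seeing the data were tried on the number of genes with more loops minus the number with fewer. In the deposited lists the inflammatory value went from 16 to 68 for p42 over p30 in UT cells and reversed from 37 to -47 for LPS over UT in p42. The granulocyte values went from 12 to 20 and from -3 to -21, and for LPS over UT in p30 reversed from -1 to 8. The AP-1 values reversed from -2 to 12 and from 8 to -13. With bins next to a start-site bin counted as start sites, at equal size, p42 over p30 with LPS reversed from 26 to -1 for inflammatory and from 7 to -1 for AP-1 genes, LPS over UT in p42 went from 37 to 8 for inflammatory genes, and p42 over p30 in UT cells went from -2 to -5 for AP-1 genes. The direction of several of these comparisons therefore depends on list length or on bins beside start sites. Among those that kept their direction were inflammatory genes for p42 over p30 in UT cells (16, deposited 68) and LPS over UT in p30 (25, deposited 36). Granulocyte genes for p42 over p30 in UT cells (12, deposited 20) also kept it. Each list rests on 1 pool of libraries per group.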

Other observations

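Apoa1, a hepatocyte gene whose start site lay in no peak bin of the lists, had 40, 46, 67 and 34 distal to distal loops nearest to its start in the deposited lists, in the order of the report. Pdgfra, a fibroblast gene, had 1, 2, 2 and 0.

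Tnip1, an inhibitor of NF-kappaB signalling next to Gpx3, had 39, 24, 40 and 31 loops at equal list size, and Irf1 had 37, 32, 40 and 29. Around both genes the LPS value was the lower one in either isoform at equal size, but the deposited lists turned this order for Irf1 in p30, from 37 loops in untreated to 40 in treated cells. By contrast, at equal size more genes of the inflammatory list had more loops with LPS than had fewer.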
